A study of Mus musculus with 12 samples.

Results

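The CCN family of matricellular proteins was examined in RNA-Seq data of proximal colon tissue from mice with and without EPR in the gut epithelium. Its members were the 5 genes listed in the count table as Ccn1, Ccn2, Ccn3, Ccn4 and Ccn5, out of 55376 genes. Of these, 4 were among the 15952 genes that reached 1 CPM (the count scaled to a fixed library size) in at least 4 libraries and were tested. Ccn5 stayed below that level in all but 2 libraries and was not tested. The related gene Ccn6, which was not a member, had 1 count over all EPR fl/fl libraries and 3 counts over all EPR cKO libraries.

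The comparison addressed what loss of EPR, a long noncoding RNA of epithelial tissues, changes in the transcriptome of the colon. EPR fl/fl mice, the controls, which carried no Cre, had loxP sites around the EPR promoter and exon 1, and EPR cKO mice carried this floxed allele together with the CDX2P-NLS Cre transgene. This transgene is driven by the human CDX2 promoter, which is active in epithelial cells of the colon, the cecum and the last stretch of the ileum. There were 6 mice of each genotype, all 12 weeks old and each giving 1 library of total RNA from the frozen proximal colon.

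CCN proteins are secreted into the extracellular matrix, where they bind integrins and heparan sulfate proteoglycans and alter how cells respond to growth factors. They are built from an insulin-like growth factor binding protein (IGFBP)-like module, a von Willebrand factor type C module, a thrombospondin repeat and, except in Ccn5, a cystine knot at the carboxyl end. Ccn1 (also Cyr61) and Ccn2 (also Ctgf) are induced quickly by serum, by stretch and by the Hippo effectors YAP and TAZ, and Ccn2 is also a target of transforming growth factor beta (TGF-beta). Ccn3 (also Nov) often acts in the opposite sense to Ccn2, and Ccn4 and Ccn5 (also Wisp1 and Wisp2) were found as genes induced by Wnt1.

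Each member carries a common pattern of cysteines in the IGFBP-like module. The same stretch of this module is shown for each gene, because all 5 transcripts carry it while their colon levels differ. Capitals mark the 24 bases that encode glycine, cysteine, any residue, 2 cysteines, any 2 residues and cysteine, and each coding sequence held 1 such stretch in frame.
Ccn1: gacGGCTGCGGCTGCTGTAAGGTCTGCgct
Ccn2: gacGGCTGCGGCTGCTGCCGCGTCTGCgcc
Ccn3: gacGGCTGCTCCTGCTGTCCGGTGTGCgcc
Ccn4: gatGGCTGTGAATGCTGTAAGATATGTgcc
Ccn5: gatGGCTGTGGCTGCTGTCGAGTGTGTgca
All are written 5′ to 3′ on the coding strand from the GENCODE transcripts of build GRCm38 (mm10). The Ccn1 stretch lies at chr3:145649328-145649357 on the minus strand, and the other 4 are on the plus strand, Ccn2 at chr10:24595963-24595992, Ccn3 at chr15:54746262-54746291, Ccn4 at chr15:66906542-66906571 and Ccn5 at chr2:163825222-163825251. Each falls within a single coding exon, which is exon 2 of 5 for Ccn1, Ccn2, Ccn3 and Ccn4 and exon 3 of 5 for Ccn5. Within the 24 bases, Ccn1 and Ccn2 were identical at 20 positions and Ccn2 and Ccn4 at 14, the highest and lowest numbers among the 10 pairs. Over the whole aligned coding sequences the identity ran from 39.2% for Ccn1 and Ccn5 to 60.6% for Ccn2 and Ccn3.

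In the deposited annotation (mm10), Ccn1 covers positions 145646976 to 145649981 of chromosome 3 on the minus strand, with 2019 exon bases. Ccn2 covers 24595442 to 24598683 of chromosome 10 with 2774 exon bases, and Ccn5 covers 163820889 to 163833146 of chromosome 2 with 1719 exon bases, both on the plus strand. Ccn3 (54745702 to 54754039, 2869 exon bases) and Ccn4 (66891320 to 66923201, 5097 exon bases) lie apart on the plus strand of chromosome 15. The longest run common to the coding sequences of 2 members was 18 bases. Ccn1, Ccn4 and Ccn5 shared no stretch of 50 bases with transcripts of any other gene, and Ccn3 shared 1.13% of such stretches. For Ccn2 this share was 17.2%, and 22.9% of its exon bases lie under the antisense gene Gm15270. Whether strand was used in counting is not stated, so the Ccn2 count may hold reads of that gene.

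Library totals lay between 13093904 and 33211041 counts. The targeted gene, listed as Smim31, ranged from 21.3 to 58.1 CPM in the controls and from 0 to 0.424 CPM in EPR cKO (log2 fold change −8.09, SE 0.47, adjusted p = 1.62e-06 by the edgeR quasi-likelihood test with Benjamini-Hochberg adjustment), so each library matched its label. The library EPR cKO 1 stood apart from the other EPR cKO libraries in genes of the colon wall. Its smooth muscle score, the mean log2 CPM of 14 contractile and other muscle genes, was 9.08, while the other 5 EPR cKO libraries lay between 6.05 and 7.36 and EPR fl/fl between 7.49 and 8.21. Fold changes of members and calls of gene lists that rest on this library are therefore given with and without it. The SDs among mice, the family shares and the r between single genes include it. In these pieces of whole tissue, fewer cells of a type and less RNA per cell cannot be told apart.

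Ccn3 was the member with the highest level in the control colon and the only tested member called between genotypes. Its level was 75.6, 118, 98.9, 87.2, 108 and 60.9 CPM in EPR fl/fl 1 to 6. In EPR cKO 1 to 6 it was 10.7, 24.8, 27.5, 15.2, 27.9 and 23.2 CPM. The groups did not overlap, since the highest EPR cKO value lay below the lowest EPR fl/fl value, and the lowest value of all was that of EPR cKO 1. These values rest on 1032 to 3626 counts per library in the controls and 195 to 894 in EPR cKO.

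The mean of Ccn3 was 91.4 ± 21.1 CPM (SD, n = 6) in the controls and 21.6 ± 7.03 CPM (SD, n = 6) in EPR cKO, or 23.6% of the control mean. The log2 fold change was −2.08 with an SE of 0.23, a 95% interval of −2.59 to −1.58 and an adjusted p of 0.000343 (edgeR quasi-likelihood test, Benjamini-Hochberg). Ccn3 was thus 1 of 4 tested members called lower at an adjusted p under 0.05, against 1.57% of all tested genes (2.46% in either direction). It was also past the thresholds used in the study (adjusted p under 0.001 with a minimum log2 fold change), as were 0.169% of tested genes on the lower side, but its edgeR adjusted p was over 0.001 with a replicate block (0.00191) and in 8 of the 12 runs that each left out 1 library (all but those without EPR cKO 1, EPR cKO 5, EPR fl/fl 1 or EPR fl/fl 6, up to 0.00162). Complete separation of the groups downward was seen for 1.47% of tested genes. It ranked 30th by p among the 15952 tested genes, and 25 genes had a lower log2 fold change. Without EPR cKO 1 the log2 fold change was −1.96 (edgeR adjusted p = 7.51e-05), and 14.4% of the genes then tested were called lower. The study lists Ccn3 among the genes it measured further. It also reports a changed pattern of promoter contacts at Ccn3 in crypts without EPR, in an analysis focused on mucus-related genes with reduced expression. The direction of Ccn3 here is therefore not taken as independent evidence.

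**Figure D1:**
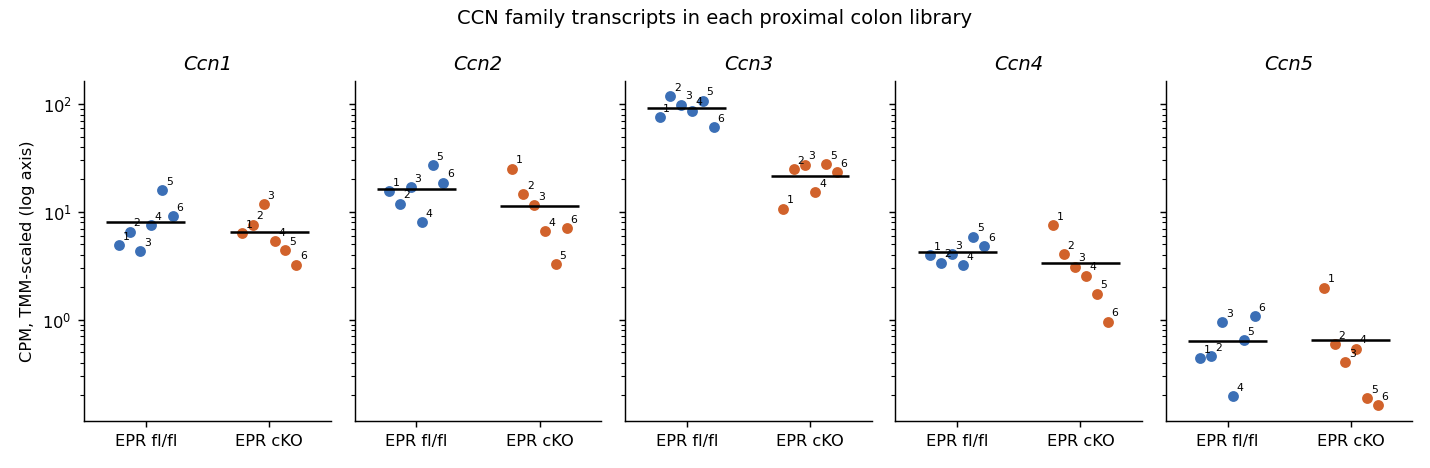
CPM of each CCN gene (shared vertical log axis, TMM-scaled) in every library, by genotype, with numbered points for single libraries and a line for the mean of 6 libraries. For Ccn3 the EPR cKO points (10.7 to 27.9) lie wholly below the EPR fl/fl points (60.9 to 118), while for Ccn1, Ccn2, Ccn4 and Ccn5 the genotypes overlap.

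Ccn1 and Ccn2, the members that are immediate early genes, were not called. Ccn1 ranged from 4.31 to 15.8 CPM in EPR fl/fl (median 7.05) and from 3.25 to 11.7 CPM in EPR cKO (median 5.85). Its highest library was EPR fl/fl 5 and its lowest EPR cKO 6, and the genotypes overlapped over most of their ranges. The log2 fold change of Ccn1 was −0.31 (SE 0.35, 95% interval −1.07 to 0.44, edgeR adjusted p = 0.645).

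Ccn2 ranged from 8.03 to 27.1 CPM in EPR fl/fl (median 16.2) and from 3.27 to 25.1 CPM in EPR cKO (median 9.25). Its highest EPR cKO value was that of EPR cKO 1, and the other 5 lay between 3.27 and 14.5 CPM. Its log2 fold change was −0.53 (SE 0.42, 95% interval −1.43 to 0.37, edgeR adjusted p = 0.514). Without EPR cKO 1 it was −0.95 (SE 0.36, edgeR adjusted p = 0.0786), still not past the threshold. The intervals of both genes include falls of over 1 on the log2 scale, so that with this spread between mice a fall of that size was not excluded.

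Ccn4 and Ccn5, the Wnt-induced members, had the lowest levels. Ccn4 ranged from 3.22 to 5.88 CPM in EPR fl/fl (median 4.01) and from 0.958 to 7.54 CPM in EPR cKO (median 2.83). Both ends of the whole range came from EPR cKO mice, the top from EPR cKO 1 and the bottom from EPR cKO 6. The log2 fold change of Ccn4 was −0.34 (SE 0.38, 95% interval −1.17 to 0.49, edgeR adjusted p = 0.650), and without EPR cKO 1 it was −0.77 (SE 0.31, edgeR adjusted p = 0.0883).

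Ccn5 was measured from 6, 14, 30, 6, 9 and 20 counts in EPR fl/fl 1 to 6 and from 36, 14, 8, 12, 6 and 3 counts in EPR cKO 1 to 6. Its level was 0.627 ± 0.334 CPM (SD, n = 6) in the controls and 0.643 ± 0.679 CPM (SD, n = 6) in EPR cKO. EPR cKO 1 again held the highest value, 1.98 CPM, and the other 5 EPR cKO libraries lay between 0.160 and 0.594 CPM. With no filter on low counts, Ccn5 had a log2 fold change of −0.03 with a 95% interval of −1.16 to 1.10, so that differences inside this interval were not excluded at this depth.

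**Figure D2:**
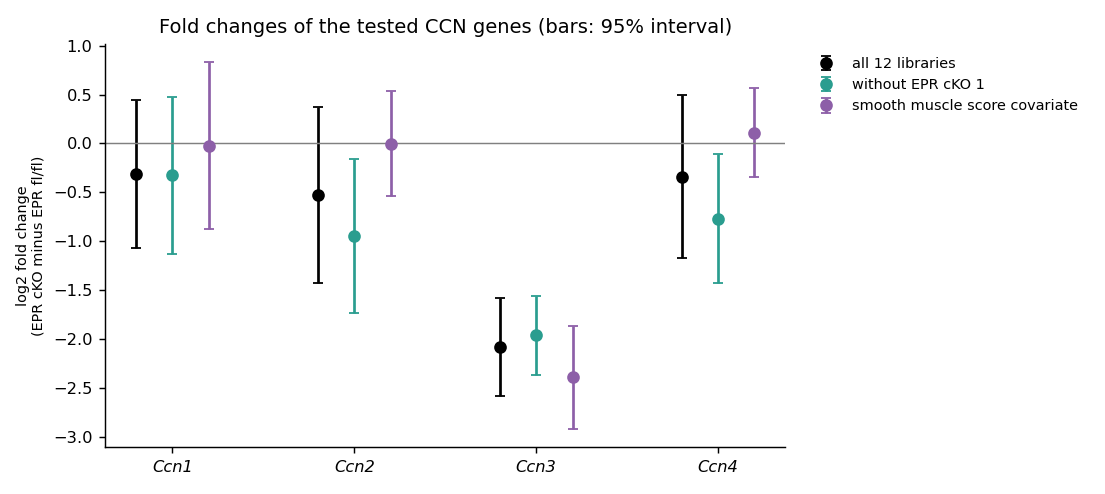
Log2 fold change of each tested CCN gene (vertical axis, EPR cKO minus EPR fl/fl) over all 12 libraries, without EPR cKO 1, and with the smooth muscle score as a covariate, with bars for the 95% interval. Ccn3 lies at −2.08, −1.96 and −2.39, while with the covariate Ccn2 lies at −0.00 and Ccn4 at 0.11.

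The unequal change within the family was tested by the log2 ratio of 2 members in each library, over the 6 pairs of tested members. The ratio of Ccn1 to Ccn3 was −3.52 ± 0.70 (SD, n = 6) in the controls and −1.69 ± 0.76 (SD, n = 6) in EPR cKO, a rise of 1.82 with every EPR cKO library above every EPR fl/fl library (two-sided exact permutation test, p = 0.00216, Benjamini-Hochberg adjusted p = 0.0130). The ratio of Ccn3 to Ccn4 was lower by 1.62 on average in EPR cKO, with overlapping groups (exact permutation p = 0.0108, adjusted p = 0.0325). The ratio of Ccn2 to Ccn3 was higher by 1.42 on average but did not pass after adjustment (exact permutation p = 0.0325, adjusted p = 0.0649). The 3 ratios without Ccn3 differed by −0.19 to 0.40 between genotypes, with exact permutation adjusted p-values from 0.555 to 0.561. Leaving out EPR cKO 1 took the first difference to 1.63 (exact permutation adjusted p = 0.0519) and the second to −1.18 (exact permutation adjusted p = 0.0519).

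Per kilobase of exon, the order of the mean levels was Ccn3, Ccn2, Ccn1, Ccn4 and Ccn5 in both genotypes. In EPR fl/fl the means were 31.8, 5.90, 3.98, 0.826 and 0.365 RPKM (CPM divided by exon length in kilobases). In EPR cKO they were 7.51, 4.09, 3.19, 0.653 and 0.374 RPKM. Ccn3 was above Ccn2 in 6 of 6 EPR fl/fl libraries and in 5 of 6 EPR cKO libraries, the exception being EPR cKO 1 with 3.74 RPKM of Ccn3 and 9.05 RPKM of Ccn2. Ccn2 was above Ccn1 in 5 of 6 EPR fl/fl and 3 of 6 EPR cKO libraries, so these neighbours did not keep their order. Ccn1 was above Ccn4, and Ccn4 above Ccn5, in all 12 libraries.

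Expressed as shares of the summed RPKM of the 5 members, Ccn3 made up 74.1% ± 8.16 (SD, n = 6) of the family signal in EPR fl/fl, with a range of 62.4% to 82.9%. In EPR cKO its share was 49.5% ± 17.9 (SD, n = 6), from 20.2% in EPR cKO 1 to 71.8%. The mean share of Ccn2 was 13.8% in the controls and 24.6% in EPR cKO, and that of Ccn1 was 9.21% and 19.7%. Ccn4 and Ccn5 had mean shares of 1.97% and 0.886% in the controls and of 3.95% and 2.26% in EPR cKO. The ranges for Ccn3 overlapped, and shares that sum to a whole rise for all others when the main member falls, so these values are given without a test.

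**Figure D3:**
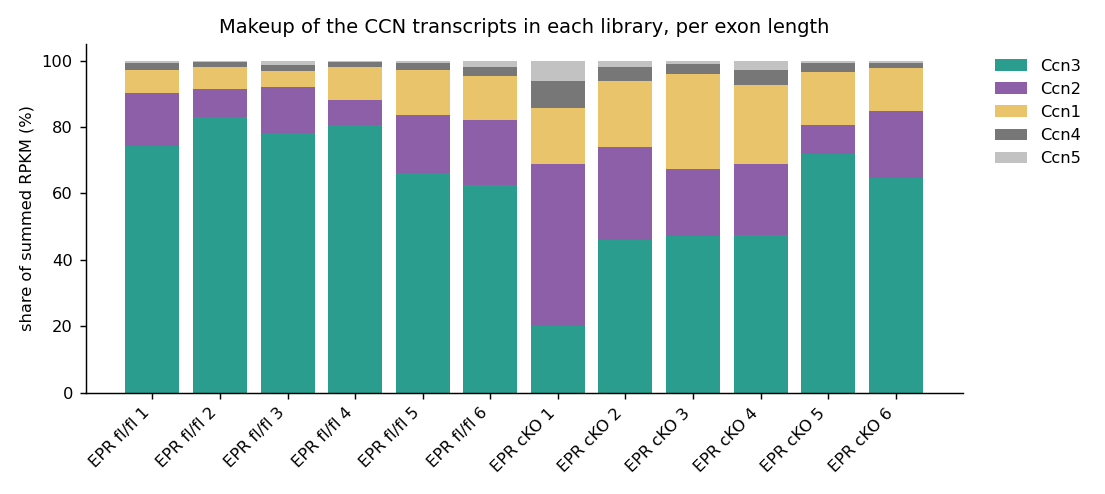
Share of each CCN gene in the summed RPKM of the 5 genes (vertical axis, percent), with 1 stacked bar per library grouped by genotype. Ccn3 takes 62.4% to 82.9% of each EPR fl/fl bar and 20.2% to 71.8% of each EPR cKO bar.

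The members also differed in how much they varied among mice of one genotype. The SD of log2 CPM of Ccn2 was 0.59 in the controls and 1.01 in EPR cKO, at the 92.5th and 94.5th percentile of all tested genes. For Ccn4 it was 0.32 in the controls and 0.99 in EPR cKO, and for Ccn1 0.67 and 0.63. Ccn3 varied less than Ccn1 and Ccn2 in both genotypes, with an SD of 0.35 in the controls and 0.55 in EPR cKO. The median SD of all tested genes was 0.22 and 0.25, so each of the 4 tested members was above that median in both genotypes. The SDs in EPR cKO include EPR cKO 1 and were not computed without it.

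The relation to muscle was examined next, since the colon wall carries layers of smooth muscle. The smooth muscle score was 7.87 ± 0.28 (SD, n = 6) in the controls and 7.03 ± 1.14 (SD, n = 6) in EPR cKO, a difference of −0.84 (two-sided exact permutation p = 0.108). Leaving out EPR cKO 1 made the difference −1.25 (exact permutation p = 0.00216), as the other 5 EPR cKO libraries all lay below the lowest EPR fl/fl library. That library was singled out by this same score, so the p-value without it is not a test of a difference between genotypes. Of the 14 genes, 13 had a log2 fold change below 0 and none was called by edgeR, DESeq2 or limma-voom over all 12 libraries, with 0 genes at an unadjusted p under 0.05 in edgeR. Myh11, the smooth muscle myosin heavy chain, ranged from 951 to 1715 CPM in the controls and from 397 to 3202 CPM in EPR cKO. Acta2, smooth muscle actin, ranged from 478 to 864 CPM and from 138 to 1245 CPM. All 14 genes were called lower once EPR cKO 1 was left out, against 14.4% of the genes then tested. As that library was singled out by these same genes, the calls without it are likewise not a test of a difference between genotypes.

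Ccn2 and Ccn4 followed the smooth muscle score from library to library. Over all 12 libraries Pearson's r of log2 CPM with the score was 0.89 for Ccn2 (Spearman's rho 0.92), with permutation p = 1e-04 and 0.00011, or 0.000950 and 0.00171 after Benjamini-Hochberg adjustment over the 19 relations computed. For Ccn4 r was 0.91 and rho 0.90, with permutation p = 3e-05 and 0.00018, or 0.000570 and 0.00171 after adjustment. Within EPR fl/fl r was 0.80 for Ccn2 and 0.89 for Ccn4, and within EPR cKO it was 0.92 and 0.90. With 6 libraries a genotype, these exact permutation p-values lay between 0.00833 and 0.0611 and none passed after adjustment (lowest 0.0528). Without the 2 libraries farthest from the median score, EPR cKO 1 and EPR cKO 5, r over the remaining 10 was 0.84 for Ccn2 and 0.87 for Ccn4. In these 10 libraries every EPR cKO score lay below every EPR fl/fl score. These r therefore mix the difference between genotypes with the relation among libraries.

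No such relation passed the test for Ccn1 or Ccn3. For Ccn1 r with the score over 12 libraries was 0.44 and rho 0.38 (permutation p = 0.150 and 0.229, adjusted 0.253 and 0.353). For Ccn3, whose genotypes did not overlap, no pooled r is given. Within genotypes its r was −0.56 in the controls and −0.65 in EPR cKO (exact permutation p = 0.250 and 0.126, adjusted 0.339 and 0.240), with rho of −0.60 and −0.54 (exact permutation adjusted p = 0.353 and 0.397). Without the 2 farthest libraries these r became 0.51 and 0.62, so their sign rested on those libraries.

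**Figure D4:**
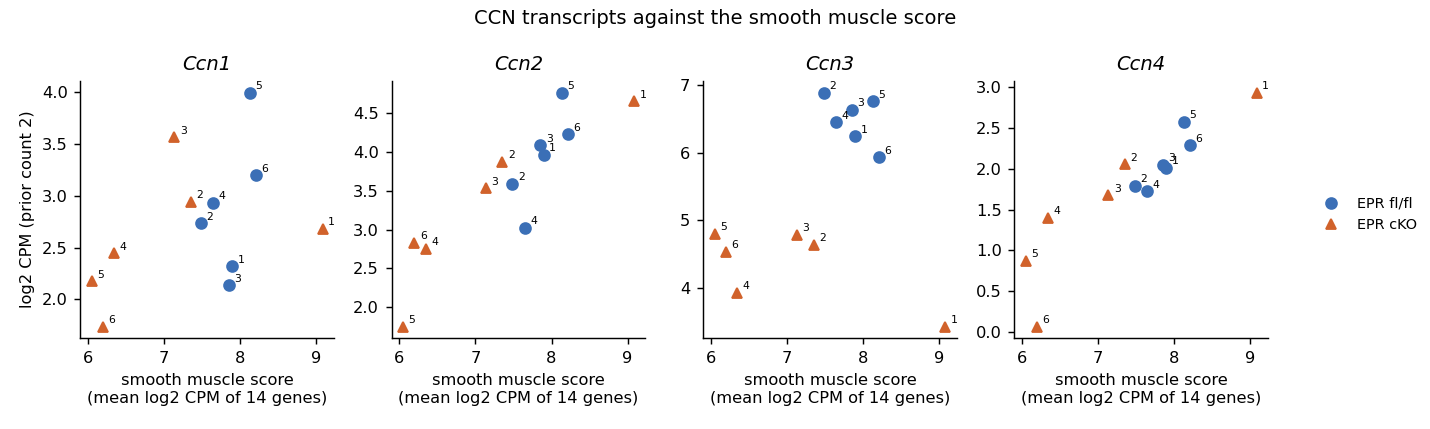
Log2 CPM (prior count 2) of Ccn1 to Ccn4 (vertical axes) against the smooth muscle score (horizontal axes, mean log2 CPM of 14 genes), with 1 numbered point per library and the genotype by colour and shape. Ccn2 and Ccn4 rise with the score up to EPR cKO 1 at 9.08, while for Ccn3 that library is the lowest.

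With the smooth muscle score as a covariate in edgeR, the log2 fold changes of Ccn1 and Ccn2 were −0.02 (adjusted p = 0.988) and −0.00 (adjusted p = 0.997). That of Ccn4 turned to 0.11 (edgeR adjusted p = 0.868). That of Ccn3 was −2.39 (SE 0.24, edgeR adjusted p = 0.000107). The score was itself measured in these libraries and was lower on average in EPR cKO. The covariate therefore takes out part of any difference between genotypes that runs along with the score.

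EPR cKO 1 had the highest summed level of all 12 libraries for the markers of fibroblasts (3430 CPM), of endothelium (126 CPM) and of enteric neurons and glia (283 CPM), but not for those of mesothelium, adipocytes or interstitial pacemaker cells. The summed level of 12 fibroblast markers was 1141 to 1983 CPM in the controls and 541 to 3430 CPM in EPR cKO, with 0 of 12 called (0 at an unadjusted p under 0.05 in edgeR, 0 called by DESeq2 and limma-voom). The sums for 10 endothelial markers were 75.0 to 91.1 and 37.2 to 126 CPM, with 0 called (1 at an unadjusted p under 0.05). For 13 markers of enteric neurons and glia they were 77.8 to 148 and 32.8 to 283 CPM, with 0 called and 0 at an unadjusted p under 0.05. Mesothelial markers summed to 7.35 to 104 CPM and 3.22 to 49.5 CPM, and adipocyte markers to 472 to 1506 and 72.0 to 1052 CPM. None of the 6 mesothelial or 8 adipocyte markers was called by edgeR, with 0 and 6 at an unadjusted p under 0.05 and 1 adipocyte marker called by DESeq2. No marker of these lists was at 0 counts throughout, and the part of these cells in the levels of Ccn1, Ccn2, Ccn4 and Ccn5 was not tested. Of 3 genes of interstitial pacemaker cells, 1 was called lower, against 1.57% of all tested genes. This was Kit, a receptor tyrosine kinase that these cells need (107 ± 28.5 and 45.3 ± 15.4 CPM, SD, n = 6, edgeR adjusted p = 0.00740). The other genes were not called, with log2 fold changes of −0.69 for Ano1 (edgeR adjusted p = 0.167) and −0.16 for Etv1 (edgeR adjusted p = 0.840). The sum of the 3 genes, most of it from Kit and Ano1, was 148 to 242 and 64.9 to 179 CPM. When EPR cKO 1 was left out, the genes called lower by edgeR were 6 of 12 for fibroblasts, 4 of 10 for endothelium, 8 of 13 for enteric neurons and glia, 0 of 6 for mesothelium, 8 of 8 for adipocytes and 3 of 3 for interstitial pacemaker cells. In that setting 14.4% of all tested genes were called lower.

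Leukocyte markers overlapped between genotypes. Their summed levels in the controls and EPR cKO were 200 to 526 and 168 to 356 CPM for 10 macrophage genes, and 19.5 to 68.7 and 22.1 to 55.7 CPM for 9 T cell genes. For the B and plasma cell genes, 4 of 6 of which were tested, they were 122 to 315 and 129 to 362 CPM. None was called by edgeR, DESeq2 or limma-voom, with 0, 1 and 0 at an unadjusted p under 0.05 in edgeR. In edgeR without EPR cKO 1, 3 macrophage genes, 1 T cell gene and 0 B and plasma cell genes were called lower, against 14.4% of the genes then tested. The 10 epithelial markers summed to 7787 to 12097 CPM in the controls and 9612 to 14604 CPM in EPR cKO. All 10 had a log2 fold change above 0 (median 0.25) and 0 were called by edgeR, with 4 at an unadjusted p under 0.05 and 1 called by DESeq2. Without EPR cKO 1, edgeR called 3 of the 10 higher, against 7.44% of the genes then tested.

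Goblet cell genes were lower in EPR cKO, as Ccn3 was. Goblet cells are the secretory cells that make intestinal mucus. Of 18 goblet cell genes, 18 had a log2 fold change below 0, with a median of −0.81 against 0.02 for all tested genes. By edgeR 11 were called lower, against 1.57% of all tested genes. Without EPR cKO 1 it was 16, against 14.4% of the genes then tested. The goblet score was 7.78 ± 0.18 (SD, n = 6) in the controls and 6.91 ± 0.17 (SD, n = 6) in EPR cKO with no overlap (exact permutation p = 0.00216, the smallest that 6 against 6 can give). The study names several genes of this list, Muc2 among them, as reduced in the same RNA-Seq data. The calls and the score are therefore not taken as independent evidence. Muc2, the gel-forming mucin, fell from 8027 ± 3589 to 1760 ± 351 CPM (SD, n = 6, log2 fold change −2.19, edgeR adjusted p = 0.000741). It was the only one of the 18 genes with a lower log2 fold change than Ccn3. Tff3, a trefoil peptide secreted with the mucin, had a log2 fold change of −0.53 (edgeR adjusted p = 0.0170), a call that was lost without EPR cKO 3 or EPR fl/fl 4 (edgeR adjusted p up to 0.0561). The study, by contrast, reported similar Tff3 levels in both genotypes. It measured them by qRT-PCR in isolated crypts, not in whole tissue as here.

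Set against these genes within each library, Ccn3 fell further than most of them. The log2 ratio of Ccn3 to the mean of the goblet list was −1.30 ± 0.38 (SD, n = 6) in the controls and −2.53 ± 0.45 (SD, n = 6) in EPR cKO, a difference of −1.23 with no overlap (exact permutation p = 0.00216, Benjamini-Hochberg adjusted p = 0.00325 over 3 ratios). Its ratio to Tff3 was lower by 1.55 on average, also without overlap (exact permutation adjusted p = 0.00325). Its ratio to Muc2 was −6.37 ± 0.68 in the controls and −6.36 ± 0.75 in EPR cKO (SD, n = 6), a difference of 0.01 (exact permutation adjusted p = 0.985). The single libraries spread from −7.20 to −5.24 and from −7.46 to −5.24, so that a modest difference between Ccn3 and Muc2 could not be seen.

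**Figure D5:**
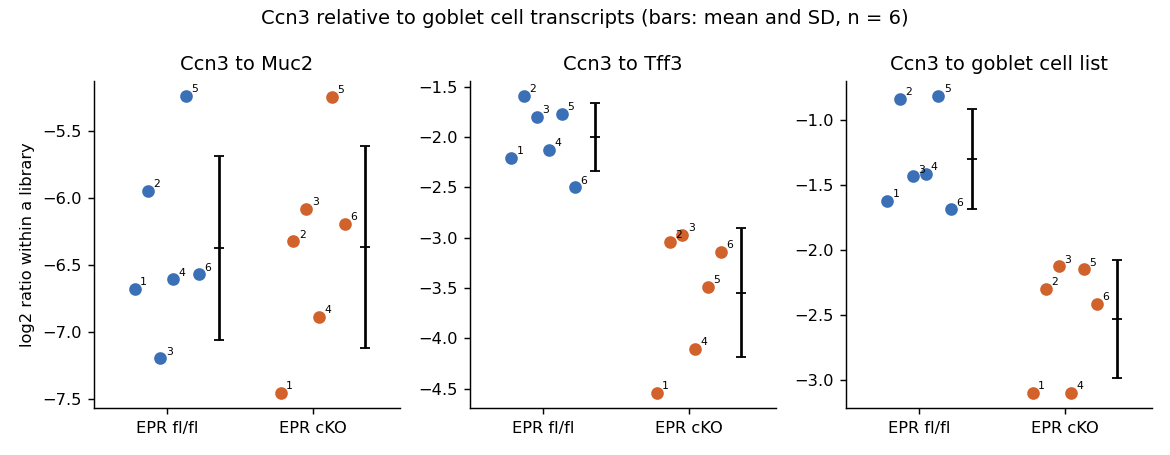
Log2 ratio of Ccn3 to the mean of 18 goblet cell genes, to Muc2 and to Tff3 (vertical axis) in each library, by genotype, with points for libraries and bars for the mean and SD of 6. The EPR cKO points lie below the EPR fl/fl points for the list and for Tff3, and the groups overlap for Muc2.

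Within a genotype, no relation of a member with the goblet score passed after adjustment. For Ccn3 Pearson's r was 0.07 in the controls and 0.65 in EPR cKO (rho −0.14 and 0.03), with exact permutation p-values of 0.893 and 0.160 for r (adjusted 0.893 and 0.253) and of 0.803 and 1 for rho. Without the 2 farthest libraries the r in EPR cKO was −0.51. Ccn1 had r = −0.87 and rho = −0.94 with the goblet score in EPR fl/fl (exact permutation p = 0.0264 and 0.0167, adjusted 0.0836 and 0.0633), but r = −0.46 when CPM were scaled by library totals (exact permutation adjusted p = 0.520), and r = −0.19 in EPR cKO (exact permutation p = 0.681, adjusted 0.718). The other relations with this score, those of Ccn2 and Ccn4, had r between −0.43 and −0.73 within genotypes and exact permutation adjusted p-values from 0.240 to 0.439.

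The genes whose level ran most like each member were found by Pearson's r over the 12 libraries, after the mean of each genotype was removed, as a description. EPR cKO 1 was included, and these r were not computed without it. For Ccn2 these were Fxyd6, a regulator of the sodium pump (r = 0.98), Armcx2 (0.97), Islr2 (0.96), Olfml2b (0.96) and the matrix protein gene Fbln1 (0.96). For Ccn4 they were the potassium channel gene Kcnq5 (0.98), Foxf1, a transcription factor of gut mesenchyme (0.97), Arhgef10 (0.97), Rab11fip5 (0.97) and Ppfia2 (0.97). Ccn2 and Ccn4 had r = 0.81 with each other, which was rank 1172 of 15951 genes for Ccn2 and rank 1495 for Ccn4. Ccn1, Ccn2 and Ccn4 were each positively related to 14 of 14 smooth muscle, 12 of 12 fibroblast and 10 of 10 endothelial genes. For Ccn1, Ccn2 and Ccn4 the median r was 0.36, 0.85 and 0.88 with the muscle genes and 0.30, 0.73 and 0.80 with the endothelial genes. The signs were thus not particular to muscle.

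For Ccn3 the most similar genes were Ocln, which encodes the tight junction protein occludin (r = 0.93), Dnajb12 (0.90), Ddc, the decarboxylase that makes serotonin and dopamine (0.90), Eral1 (0.87) and B230322F03Rik (0.86). Their log2 fold changes between genotypes lay from −0.03 to 0.18 and none was called by edgeR, so they resembled Ccn3 among mice of one genotype but not between genotypes. Ccn3 was positively related to 0 of 14 smooth muscle genes (median r −0.60), 0 of 12 fibroblast genes (median −0.60) and 12 of 18 goblet cell genes (median 0.40). For Ccn1 the most similar genes were Gm26669 (r = 0.86), Rcan1, an inhibitor of calcineurin (0.84), Gm48226 (0.84), Chchd6 (0.83) and Klc3 (0.83). Ccn1 had lower values with Ccn2 (0.48) and Ccn4 (0.57) than these had with each other.

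Genes upstream of the family showed few calls. Of 17 genes of the Hippo pathway and the TEAD factors, which carry YAP and TAZ to DNA, 0 were called by edgeR, DESeq2 or limma-voom, with 2 at an unadjusted p under 0.05 in edgeR and a median log2 fold change of 0.04. In edgeR without EPR cKO 1, 2 of them were called lower and the median was −0.05. In that setting 14.4% of all tested genes were called lower and 7.44% higher. Mob1a, a cofactor of the LATS kinases, was 158 ± 10.2 CPM in the controls and 174 ± 12.4 CPM in EPR cKO (SD, n = 6). Of 19 other YAP and TAZ targets, 18 were tested and 0 were called by edgeR, with 4 at an unadjusted p under 0.05, 2 called higher by DESeq2 and a median of −0.30. Without EPR cKO 1, 10 of the 18 were called lower and 2 higher. Of 16 TGF-beta pathway genes, 1 was called higher against 0.884% of all tested genes, none was called lower, and the median was −0.13. The gene called higher was Smad7, a feedback inhibitor of the pathway (56.0 ± 5.22 and 77.1 ± 10.6 CPM, SD, n = 6, log2 fold change 0.46, edgeR adjusted p = 0.0222). When EPR cKO 1 was left out, 6 of the 16 were called lower. The call of Smad7 was lost when EPR cKO 2, EPR cKO 3, EPR fl/fl 1, EPR fl/fl 3, EPR fl/fl 4 or EPR fl/fl 5 was left out (edgeR adjusted p up to 0.0637) and with the replicate block (0.0733).

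Among 22 other immediate early genes, 21 were tested, 2 were called higher against 0.884% of all tested genes, none was called lower, and the median was 0.26. They were Fosl1 (1.23 ± 0.373 and 2.71 ± 0.651 CPM, SD, n = 6, log2 fold change 1.14, edgeR adjusted p = 0.0242) and Fosb (2.63 ± 1.17 and 7.63 ± 4.08 CPM, SD, n = 6, log2 fold change 1.52, edgeR adjusted p = 0.0445), which encode AP-1 subunits. These calls did not hold when some single libraries were left out. That of Fosl1 was lost without EPR cKO 2, 3, 5 or 6 or EPR fl/fl 3 or 4 (edgeR adjusted p up to 0.0706). That of Fosb was lost in 9 of 12 such runs, all but those without EPR cKO 1, EPR cKO 4 or EPR fl/fl 2 (edgeR adjusted p up to 0.120), and by limma-voom (0.0515) and with the replicate block (0.0917). DESeq2 called 4 of the 21 genes higher and limma-voom 1. Without EPR cKO 1, edgeR called 4 of them higher, against 7.44% of the genes then tested. The antisense gene Ccdc85b covers 62.4% of the exon bases of Fosl1, so its count is uncertain without knowledge of the strand. Klf4 and Klf6, the immediate early genes with the highest levels, had log2 fold changes of 0.23 (edgeR adjusted p = 0.319) and 0.19 (edgeR adjusted p = 0.562). Ccn1 and Ccn2, which belong to the same class of genes, had point estimates below 0, whereas 18 of the 21 others were above 0, a contrast that was not tested.

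Of 12 Wnt target genes, 9 were tested and 0 were called by edgeR, with 4 at an unadjusted p under 0.05, 1 called lower by each of DESeq2 and limma-voom, and a median of −0.24. In edgeR without EPR cKO 1, 2 were called lower and 1 higher, against 14.4% and 7.44% of the genes then tested. Cd44, an adhesion receptor for hyaluronan, was 98.5 ± 15.4 CPM in the controls and 123 ± 11.4 CPM in EPR cKO (SD, n = 6, edgeR adjusted p = 0.128). The transcription factor gene Sox9 was 34.7 ± 8.80 and 29.5 ± 9.13 CPM (SD, n = 6, edgeR adjusted p = 0.562).

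Genes for the receptors and partners of CCN proteins were not called. Of 15 receptors and coreceptors, 14 were tested, with 0 called by edgeR, DESeq2 or limma-voom, 0 at an unadjusted p under 0.05 and a median of −0.05. The integrin gene Itgb1 was 423 ± 51.1 CPM in the controls and 414 ± 67.5 CPM in EPR cKO (SD, n = 6), and Lrp1, a scavenging receptor that binds CCN proteins, was 591 ± 58.2 and 586 ± 157 CPM (SD, n = 6). Of 12 binding partners, 10 were tested and 0 were called by these tools, with 1 at an unadjusted p under 0.05 in edgeR and a median of −0.27. Fibronectin, Fn1, ranged from 166 to 311 CPM in the controls and from 70.8 to 518 CPM in EPR cKO. Of 15 other matricellular genes, 14 were tested and 0 were called by these tools, with 3 at an unadjusted p under 0.05 and a median of −0.46. Among these, Sparc ranged from 128 to 313 CPM and from 45.4 to 420 CPM, and Sparcl1 from 174 to 354 and from 54.9 to 467 CPM. Without EPR cKO 1, 5 binding partners and 11 other matricellular genes were called lower and 1 of the latter higher, while 0 receptors were called. The shares of all tested genes in that setting were 14.4% lower and 7.44% higher.

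A promoter from RefSeq (GRCm38.p6, 250 bases before to 50 after the start) was at hand for 1 of the 5 members, Ccn1. The TEAD motif GGAATG, searched on both strands, occurred 1 time in it, 98 bases before the start. The motif was present in 14.7% of 32851 promoters of the same length. The SMAD motif CAGAC occurred 1 time (49.6% of promoters hold it). The AP-1 motif TGACTCA, whose reverse complement is TGAGTCA, occurred 0 times (5.20% hold it), and the CArG box of serum response factor 0 times (1.63% hold it).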

How the data were processed

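The authors deposited unnormalized, unfiltered counts of reads for each gene, with exon coordinates and summed exon length, in a single table. Per the labels and the study's methods, total RNA of the frozen proximal part of the colon was depleted of ribosomal RNA, sequenced as paired ends, aligned to mm10 (GRCm38) with STAR 2.5.3a and counted with featureCounts. R 3.5.1 and bcl2fastq 2.20.0.422 are also listed in the submitters' processing notes. The use of strand and the treatment of reads with several alignments are not given in the sources used here. All 12 columns of counts could be tied to a sample by name (0 columns had none), and groups came from the sample labels.

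Any count was present for 36694 genes, and 15952 of them reached a CPM of 1 in 4 or more libraries and were tested. edgeR 4.0.16 in R 4.3.3 was used, with TMM scaling and the quasi-likelihood test on genotype alone in the 12 libraries. Benjamini-Hochberg adjustment covered every tested gene. CPM values are relative to the TMM-scaled counts of the tested genes. RPKM values are these CPM divided by exon length in kilobases. Log2 CPM of libraries used a prior count of 2 and log2 ratios of members a pseudocount of 0.5. Scores are the mean log2 CPM over a list, and were compared, like the ratios, by two-sided exact permutation over the 924 assignments of libraries. Relations over 12 libraries used 100000 resamples and those over 6 all 720 pairings. DESeq2 1.42.0 and limma 3.58.1 (voom) were alternatives, beside other scalings, filters, a replicate block, the muscle score as a covariate and leaving out each library.

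The members and gene lists were chosen with earlier results of these data known. Named genes were the members, the targeted gene, Muc2, Tff3, for each list up to 4 genes called at an adjusted p under 0.05 and the 2 of highest mean CPM, of which not all are given, and the 5 genes most like each tested member. The study's methods describe 12 mice and 12 libraries, and no pair of libraries within a genotype agreed within sampling noise. Depth differed by library (13093904 to 33211041 counts), so that values under about 1 CPM, such as those of Ccn5, rest on few counts and carry the largest counting error.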

Additional observations from a re-analysis of the deposited data

Results flagged for a closer look

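Among 34 sets of 6 values, the highest or lowest value stood far from the other 5 (Dixon's criterion at 95%) in 3, where chance alone would give about 1.7. Ccn5 was 1.98 CPM in EPR cKO 1, and the next EPR cKO library had 0.594 CPM. The targeted gene Smim31 was 0.424 CPM in EPR cKO 2, against 0.134 CPM in the next EPR cKO library and at least 21.3 CPM in EPR fl/fl. The goblet score was 6.57 in EPR cKO 1, with the next lowest library at 6.92. This holds for the mean log2 CPM only. The summed CPM of the goblet cell genes was 8849 in EPR cKO 1, within the 6646 to 9017 of the other EPR cKO libraries. EPR cKO 1 was thus far from the others in 2 of the 3 sets, and it was also the library with the highest smooth muscle score (9.08) and the lowest Ccn3 (10.7 CPM).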

How the results depend on the processing

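Ccn3 stayed lower and past the 0.05 threshold under every alternative run, but did not always keep an adjusted p under 0.001, which was passed in 4 of the 12 runs without 1 library and not with the replicate block. Its log2 fold change lay between −2.39 and −2.08 over 9 settings and between −2.17 and −1.96 when each library was left out. Ccn1, Ccn2 and Ccn4 were called in none of them. Ccn4 turned to 0.11 with the smooth muscle score as a covariate. The cause of the changes below was not tested.

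Counts over all genes moved more. DESeq2 called 473 genes lower and 440 higher, and 69 and 8 past the study thresholds. The number called higher was 39 with library totals, 54 with no filter on low counts and 93 with the muscle covariate. Leaving out each library gave 145 to 2273 genes lower and 28 to 1178 higher, and 19 to 48 lower and 0 to 3 higher past the study thresholds. The highest count in each case was that without EPR cKO 1. Genes of the lists called lower numbered 7 to 99 and those called higher 0 to 12, with 8 higher by DESeq2 and 1 with library totals.

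The labels state no pairing of mice by replicate number. The deviations of same-numbered libraries had r from −0.24 to 0.34, and 2 of 6 EPR fl/fl libraries were closest to their own number. These values show no clear pairing but cannot exclude one. With the replicate block, 67 genes were higher, 4 were lower past the study thresholds and 1 list gene was higher, and Ccn3 was −2.12 (edgeR adjusted p = 0.00191).

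Of the differences in ratio, leaving out each library gave 1.63 to 2.02 for Ccn1 to Ccn3, with exact permutation adjusted p-values up to 0.0649. This difference no longer passed 0.05 without EPR fl/fl 1, 2 or 3 or EPR cKO 1. For Ccn3 to Ccn4 the runs gave −1.89 to −1.18, with exact permutation adjusted p-values up to 0.0714. That difference no longer passed 0.05 without EPR fl/fl 1, 2, 3, 4 or 5 or EPR cKO 1. For Ccn2 to Ccn3 the runs gave 0.97 to 1.79. It passed 0.05 without EPR cKO 5 (exact permutation adjusted p = 0.00866), as it did with a pseudocount of 2 (1.44, exact permutation adjusted p = 0.0346). The difference of Ccn3 to Muc2 lay between −0.22 and 0.24 and was below 0 in 7 of these 12 runs. The smooth muscle score difference lay between −1.25 and −0.65 and passed only without EPR cKO 1, the library singled out by this score.

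With DESeq2 size factors the relations of Ccn2 (r = 0.92) and Ccn4 (r = 0.90) with the muscle score in EPR cKO passed adjustment (both at an exact permutation adjusted p of 0.0462). Without the 2 farthest libraries, r of Ccn3 with the muscle score was 0.51 in the controls and 0.62 in EPR cKO, r of Ccn3 with the goblet score in EPR cKO was −0.51, and r of Ccn1 with the goblet score in EPR cKO was −0.97. With 4 libraries left, these values carry little weight.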
